A study of Spermophilus dauricus with 30 samples.

Results

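In the leg muscles of Daurian ground squirrels (*Spermophilus dauricus*), 52 of 26378 numeric identifiers had their highest level before hibernation in both the soleus and the extensor digitorum longus. They were chosen by their measured values. Counts were divided by a size factor per library, which gives the normalised counts used throughout, and the median of the 3 libraries of each group was taken. An identifier was kept when its median before hibernation was at least 100 and at least 1.4 times the median of each of the other 4 states, in each muscle. The 8 ratios between PRE and another state therefore chose the members, and they are given as a description without a test. Members are placed from 1 to 52 by the smallest of their 8 ratios, with the largest at place 1. No table that links identifiers to names was used here, so 4 members are given by number and the others by place. For the same reason no function can be given for any member, and the labelled tissue could not be checked against muscle markers.

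The series holds 30 libraries in 10 groups of 3, from summer active squirrels (SA), squirrels before hibernation (PRE), in hibernation (HIB), aroused between bouts of torpor (IBA), and once hibernation was over (POST). In each state 3 libraries are labelled SOL, the usual abbreviation of soleus, and 3 EDL, that of extensor digitorum longus. All are labelled wild type, and all carry one treatment label that names hibernation. The labels used here give no age, sex or strain and do not say which libraries came from one animal, so the spread measured is that between libraries. Total counts ran from 31442362 to 41972200 per library. POST SOL replicate 1 stood apart from the other SOL libraries on the first principal component, at -75.4 against -12.7 to 40.3. The member count and the edgeR call counts that use it are also given without it, alone or within a range over single libraries left out. Ratios, overlaps, nearest states, library shares and DESeq2 counts are given only with it.

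A hibernator fattens and lowers its activity before its season of torpor, and then alternates long bouts of torpor at low body temperature with short arousals at normal temperature. Its muscles are little used for months yet keep much of their mass. The soleus is mainly a slow, postural muscle and the EDL mainly a fast one, so a change found in both is shared by muscles of unlike fibre make-up. In bulk muscle RNA, more cells of a type and more RNA per cell cannot be told apart.

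The rise before hibernation was about 2-fold in the middle of the list. In SOL the median ratio over the 52 members was 2.08 for PRE over SA, 2.07 over HIB, 2.35 over IBA and 2.06 over POST. The EDL medians were 2.18, 2.53, 2.46 and 1.93 in the same order. Over all numeric identifiers with a PRE median of at least 100, 11256 in SOL and 11201 in EDL, the 8 median ratios lay between 1.0045 and 1.06. The smallest ratio of a member reached 2 for 7 members, 2.5 for 4 members and 3 for 1 member, and it lay below 1.5 for 21. The last 3 members inside the threshold of 1.4 stood at 1.4004, 1.402 and 1.404, and the first 3 identifiers outside it at 1.398, 1.397 and 1.394. A further 29 identifiers had a smallest ratio between 1.3 and 1.4. PRE medians of the members ran between 108 and 413287 in SOL, and between 102 and 523167 in EDL. The lowest PRE median of a member was 102, and the highest of an identifier that met the ratios and missed the level was 88.9. Levels of different members are not ranked, since counts grow with transcript length and no lengths were given.

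**Figure D1:**
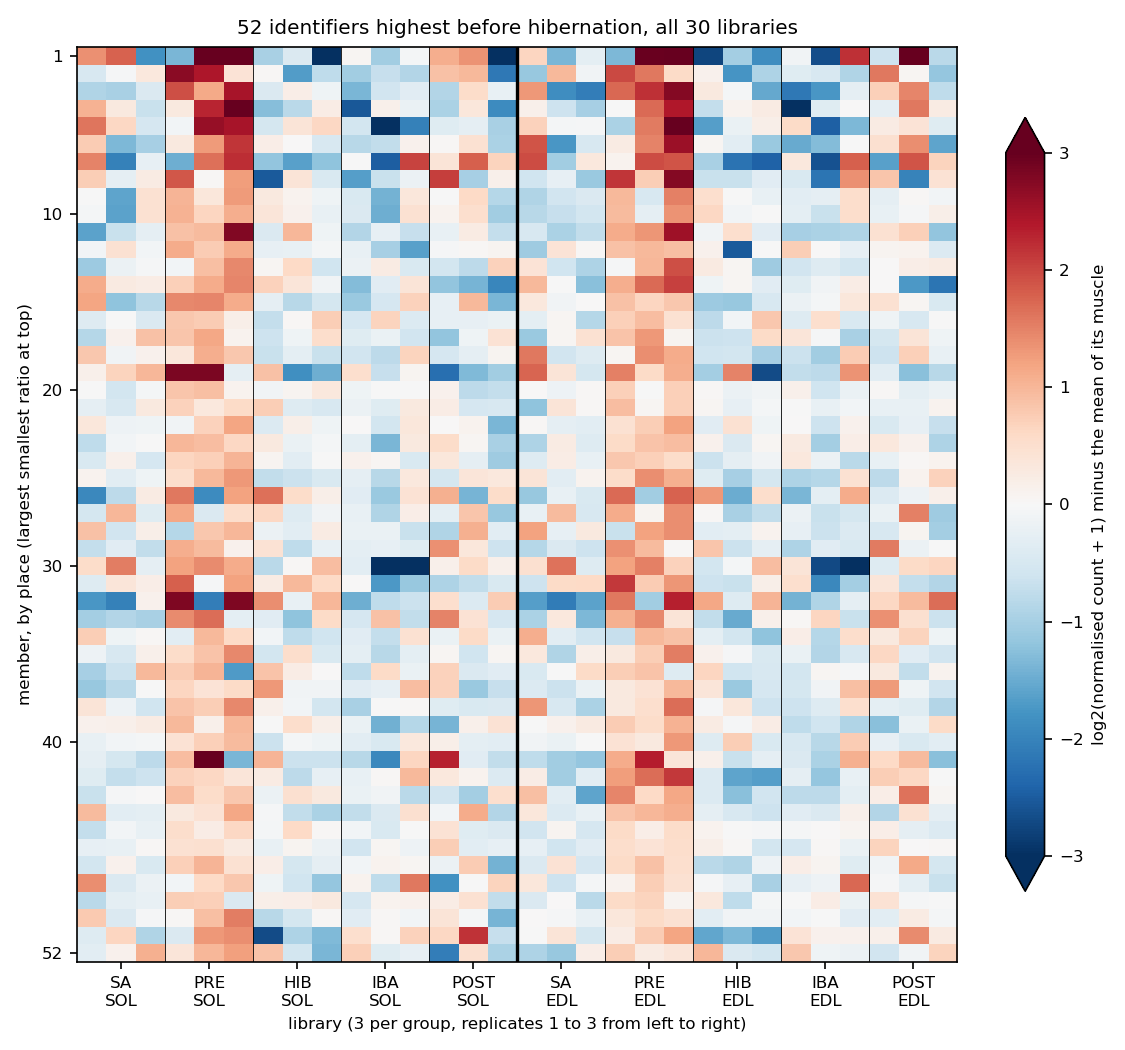
Heat map of log2(normalised count + 1) of the 52 members in 30 libraries, each row relative to the mean of its muscle, with SOL left and EDL right of the thick line and 3 libraries per state. The PRE columns are mostly red in both muscles, and single PRE libraries of many rows are pale or blue.

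The same rule found more identifiers for summer and fewer for the other states. With another state in the place of PRE it kept 157 identifiers for SA, 35 for POST, 30 for HIB and 9 for IBA. The PRE rule on SOL alone kept 217 identifiers and on EDL alone 143, so the 52 shared ones were 23.96% of the first list and 36.4% of the second. The count of members depended on scaling: with counts scaled to the library total it was 27, of which 25 were among the 52, and with TMM-scaled counts it was 52, of which 51 were shared.

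Taken over all 52 members, the level was higher in each PRE library than in any library of another state of that muscle. The rule used these values, so this is a description. The mean log2 level of the 52 members, relative to the mean of all libraries of the muscle, was 0.73, 0.91 and 1.02 in the PRE SOL replicates 1 to 3 and 0.71, 0.87 and 1.24 in the PRE EDL replicates. The highest library of any other state was POST replicate 2, at 0.05 in SOL and 0.25 in EDL, and the lowest was IBA replicate 2, at -0.62 and -0.67. Between 44 and 51 of the 52 members lay above the median of their muscle in a PRE library, and between 6 and 31 in the libraries of other states. Members took 1.68% to 2.06% of all counts in PRE SOL libraries and 0.759% to 1.23% in the other SOL libraries. In EDL they took 1.77% to 1.92% in PRE and 0.852% to 1.43% in the other states. One member, at place 24, supplied the larger share of these counts in every library. Without it the share was 0.593% to 0.733% in PRE SOL against 0.233% to 0.520% elsewhere in SOL, and 0.469% to 0.628% in PRE EDL against 0.250% to 0.438% elsewhere in EDL.

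Single PRE libraries overlapped those of other states for most members, since a median asks only 2 of 3 libraries to be high. In SOL the lowest PRE library lay above all 12 libraries of the other states for 10 of 52 members, and in EDL for 12. Among all identifiers with that PRE level the shares were 0.951% and 0.652%. Against single states the count without overlap in SOL was 22 for SA, 24 for HIB, 27 for IBA and 21 for POST, where 19.2%, 15.6%, 15.3% and 6.38% of all identifiers met the condition. The EDL counts were 28, 29, 26 and 19, against 11.7%, 17.0%, 12.6% and 9.13%. The rule used these contrasts, so nothing is read from the excess over the background. In the other direction, the lowest PRE library lay below the highest median of another state for 23 members in SOL and 17 in EDL, 12 of them in both muscles. All 6 PRE libraries passed the fold of 1.4 over each other median for 5 of the 52 members. For these last counts the share of all identifiers was not counted, and nothing is read from them about the members.

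For 4 members, at places 3, 12, 23 and 24, all PRE libraries lay above all other libraries in both muscles. The rule used these contrasts, so this is a description. Of all identifiers with that PRE level, 0.951% met the condition in SOL and 0.652% in EDL. The share that met it in both muscles at once was not counted, so nothing is read from the 4. The member at place 24 had the highest counts of all 52. Its SOL levels in replicates 1 to 3 were 390781, 413287 and 511727 in PRE, 182614, 281113 and 177061 in SA, and 264954, 202070 and 248368 in HIB. They were 273684, 260330 and 182551 in IBA and 319206, 209631 and 119959 in POST. The PRE libraries were thus at least 1.22 times the highest other SOL library, which was POST replicate 1. In EDL the PRE levels were 557172, 523167 and 466734, and the other 12 libraries lay between 181633 and 396005 with a median of 276907. Here the highest other library was IBA replicate 1, and the gap was 1.18-fold.

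The member at place 12 combined a PRE peak with a large difference between muscles. Its SOL levels were 19408, 15283 and 19402 in PRE and lay between 2886 and 12281 in the other states. In EDL they were 2780, 2960 and 2813 in PRE, a narrow range, and lay between 264 and 2524 elsewhere. The lowest values outside PRE were IBA replicate 3 in SOL and HIB replicate 2 in EDL, so they did not come from the same state. The member at place 23 had like levels in both muscles, with PRE at 1619, 1548 and 1245 in SOL and 1261, 1546 and 1606 in EDL. Its other libraries lay between 314 and 1183 in SOL, and between 416 and 1061 in EDL, with POST replicate 1 highest and IBA replicate 2 lowest in both. The member at place 3 stood at 336, 194 and 486 in PRE SOL, against 33.0 to 128 elsewhere. In EDL it stood at 723, 1001 and 1485, against 49.3 to 613, and POST replicate 2 was the highest other library in both muscles.

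**Figure D2:**
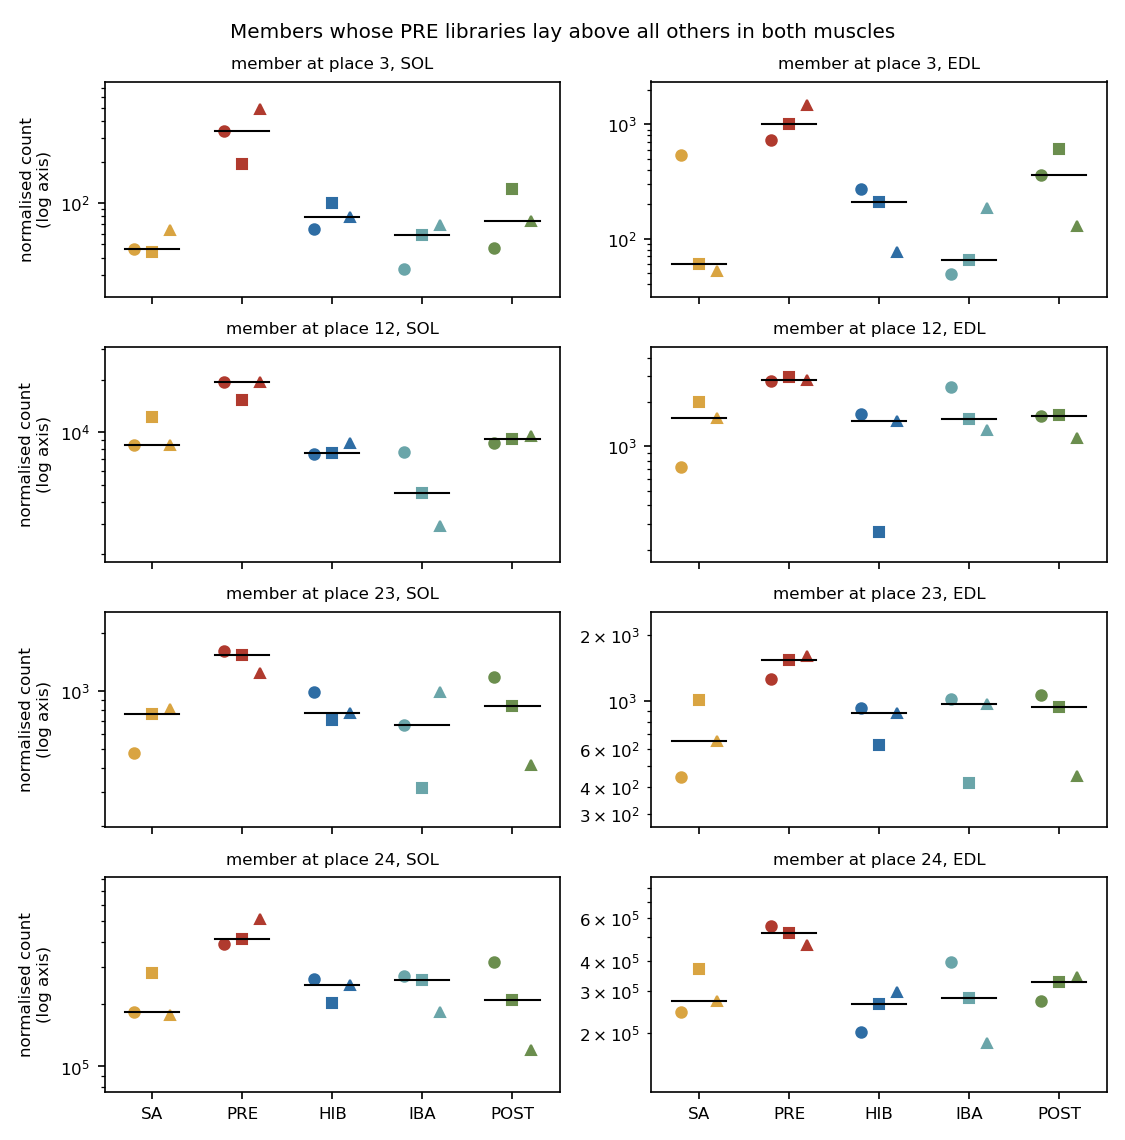
Normalised counts on log axes of the members at places 3, 12, 23 and 24 in SOL (left) and EDL (right), with circles, squares and triangles for replicates 1, 2 and 3 and a bar at the median of each state. All PRE points lie above every other point of their panel, by 1.05-fold at the least, for place 23 in SOL.

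The 2 members with the largest smallest ratio did not hold this separation. Identifier 101965427, at place 1 with a smallest ratio of 3.78, had SOL levels of 8.55, 235 and 312 in PRE and 62.2, 82.7 and 5.98 in SA. In HIB they were 11.6, 17.3 and 1.93, in IBA 24.8, 10.9 and 22.7, and in POST 51.1, 61.2 and 0.716. PRE replicate 1 thus lay below at least 2 libraries of each other state, and the high PRE median rested on replicates 2 and 3. In EDL its levels were 60.5, 1233 and 2443 in PRE, 245, 60.2 and 129 in SA, and 22.3, 77.4 and 42.7 in HIB. They were 145, 24.04 and 722 in IBA and 101, 1324 and 88.9 in POST, so that PRE replicate 1 was again low and POST replicate 2 lay above the PRE median. Its lowest library held 1 count.

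Identifier 101969612, at place 2 with a smallest ratio of 2.89, was low in the third PRE library instead. Its SOL levels were 3088, 2554 and 624 in PRE, 335, 463 and 586 in SA, and 484, 146 and 276 in HIB. In IBA they were 226, 292 and 256, and in POST 864, 923 and 106. Its EDL levels were 1831, 1396 and 693 in PRE, 211, 914 and 437 in SA, 513, 137 and 244 in HIB, 361, 335 and 249 in IBA and 1400, 484 and 208 in POST. In both muscles PRE replicate 1 was highest and replicate 3 lowest, and replicate 3 overlapped other states: POST in SOL, SA and POST in EDL.

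For most members, libraries of the same number and state deviated together in SOL and EDL. Deviations of log2 levels from the group mean were correlated between the muscles over the 15 pairs of SOL and EDL libraries with the same state and number. The r had a median of 0.74 over the 52 members, from -0.64 to 0.98, and of 0.50 over 10931 identifiers with a PRE median of at least 100 in both muscles. It was above 0.8 for 19 members (36.5%) and for 9.82% of those identifiers. The 15 points of one member come from library pairs that every member shares. The members also spread more within groups, with a median SD of log2 levels of 0.64 in SOL and 0.64 in EDL, against 0.30 and 0.26. A rule on medians of 3 libraries in both muscles favours identifiers with a wide spread shared by the muscles, so nothing is read from the difference to the background in either measure. The labels do not say whether a shared number marks one animal, and a peak in both muscles is not counted here as 2 independent observations.

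Within PRE, the lowest library had the same number in SOL and EDL for 39 of 52 members (75.0%), against 54.3% of the 10931 identifiers. It was replicate 1 for 18 members, replicate 2 for 11 and replicate 3 for 10. In the 18 members with replicate 1 lowest, that library stood at a median of 0.42 times the mean of the other PRE libraries in SOL and 0.48 times in EDL. For the 11 with replicate 2 lowest the values were 0.56 and 0.44, and for the 10 with replicate 3 lowest 0.49 and 0.52. The highest PRE library had the same number in both muscles for 31 members (59.6%), against 52.8%. The rule used these 6 libraries and lets 1 of 3 be low in each muscle, so these shares are a description too.

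**Figure D3:**
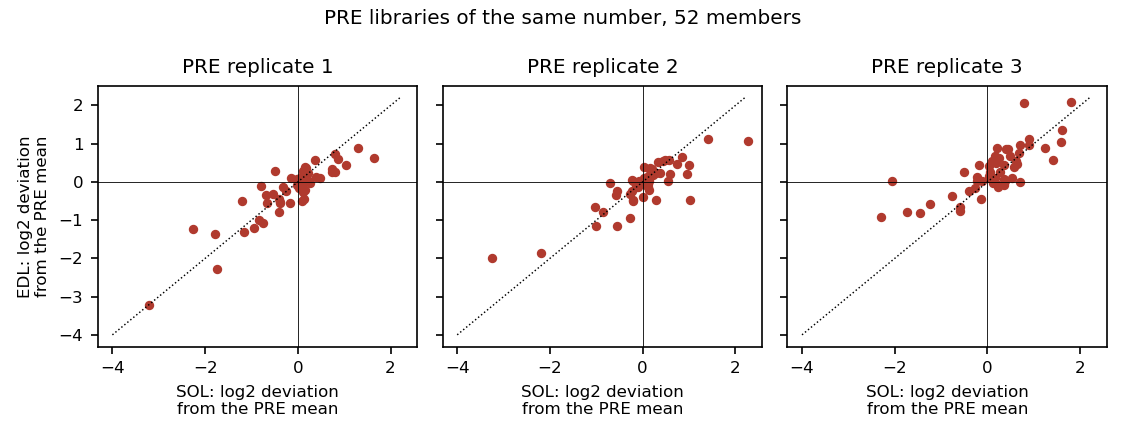
Deviation of each PRE library from the mean of its 3 PRE libraries on the log2 scale, SOL on the x axis and EDL on the y axis, 1 point per member and 1 panel per replicate number, with a dotted line of equality. Points scatter along the line in each panel, and the far low points belong to different members in the 3 panels.

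The 18 members that were lowest in PRE replicate 1 were also alike in some libraries of other states. In EDL, SA replicate 1 lay above the SA mean for 18 of 18, POST replicate 2 above the POST mean for 16 and IBA replicate 3 above the IBA mean for 14. In SOL the counts for the same libraries were 15, 15 and 14. Of the 10931 identifiers, between 50.4% and 54.5% lay above the group mean in these 6 libraries. The mean deviation of the 18 members in them ran from 0.48 to 0.72 on the log2 scale. In the HIB libraries their mean deviations lay between -0.17 and 0.20. The other subsets had shared deviations as well. HIB EDL replicate 2 lay above the HIB mean for 0 of the 11 members lowest in PRE replicate 2 and for 0 of the 10 lowest in PRE replicate 3. SA SOL replicate 3 lay above the SA mean for 10 of those 11. Of the 10931 identifiers, 49.6% lay above the group mean in each of these libraries. Over the 24 libraries outside PRE, 12.6% of member pairs had deviations with an r beyond 0.5 in size, beside 14.5% of pairs of the 10931 identifiers. The median r was 0.09 over member pairs and 0.00 over those pairs. Within the subsets lowest in PRE replicates 1, 2 and 3 it was 0.27, 0.10 and 0.20. The subsets were formed, and the libraries named were picked, after their values had been seen. The rule used the medians of these states, which lets 1 high library of 3 pass, so no test is given.

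Identifier 101965820, at place 7, is one of these 18 members and had the lowest mean HIB minus SA difference of all 52. Its SOL levels were 1765, 15324 and 22566 in PRE, 13529, 1181 and 4069 in SA, and 2143, 1569 and 2086 in HIB. In IBA they were 4794, 877 and 19858, and in POST 6284, 16902 and 7652. The EDL levels were 5660, 20657 and 19581 in PRE, 20740, 2579 and 6645 in SA, 2701, 1139 and 978 in HIB, 6558, 868 and 18291 in IBA and 1718, 19680 and 8489 in POST. The same library numbers were highest in both muscles in SA, IBA and POST, and no HIB library exceeded 2701. On the log2 scale HIB minus SA was -1.70 ± 1.02 in SOL (SE, edgeR adjusted p = 0.325). It was -2.65 ± 1.04 in EDL (SE, edgeR adjusted p = 0.142), and neither passed the threshold of 0.05.

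**Figure D4:**
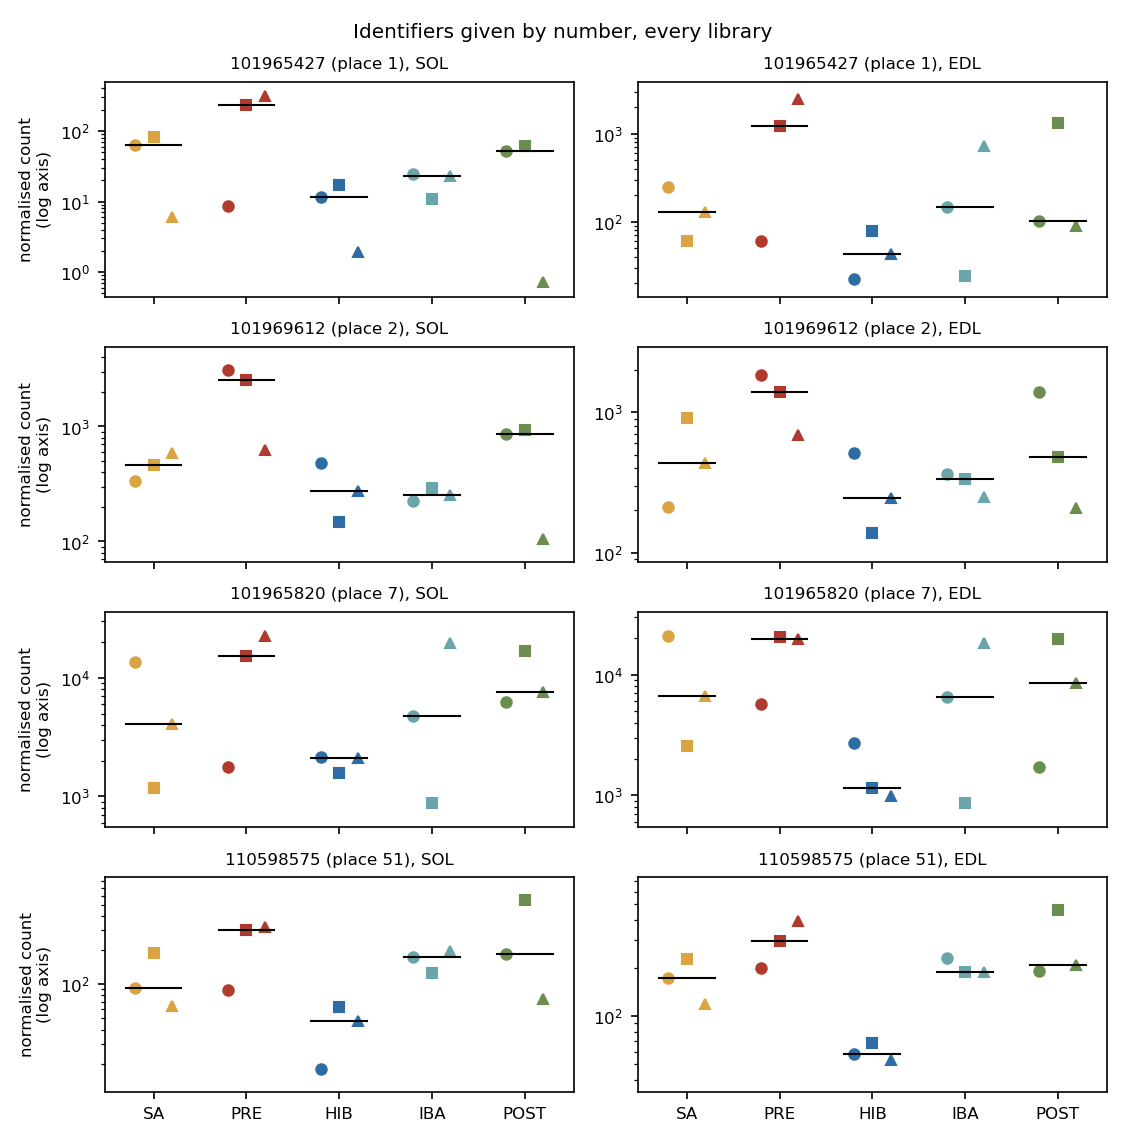
Normalised counts on log axes of the 4 identifiers given by number in SOL (left) and EDL (right), with circles, squares and triangles for replicates 1, 2 and 3 and a bar at the median of each state. PRE replicate 1 (circle) is low for 101965427, 101965820 and 110598575 in both muscles, and PRE replicate 3 (triangle) for 101969612.

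Between the other states, the edgeR test used here called at most 1 member in a comparison. Comparisons among SA, HIB, IBA and POST were not part of the rule, although it held all 4 below the PRE median. They were tested over all identifiers with edgeR's quasi-likelihood test and Benjamini-Hochberg adjustment, and all 52 members passed the filter on low counts. Between HIB and SA in SOL, 0 members were called, where 3.59% of 16443 identifiers were, 1.64% higher in HIB and 1.96% lower. An unadjusted p under 0.05 was reached by 2 members (3.85%) against 23.96% of all identifiers, and DESeq2 called 0 members where it called 11.9% of all. Without POST SOL replicate 1, which shares in the estimate of spread, edgeR still called 0 members in SOL, beside 1616 of 16745 identifiers. In EDL, 1 member was called, lower in HIB, where 4.79% of 16299 identifiers were called, 2.56% higher and 2.22% lower. There 6 members (11.5%) had an unadjusted p under 0.05 against 23.5% of all, and DESeq2 called 3 members where it called 10.6% of all. Fitted differences beyond 2-fold were about as frequent in members as in all identifiers, at 8 members (15.4%) against 16.0% in SOL and 7 (13.5%) against 13.0% in EDL. The median log2 difference of the members was 0.04 in SOL and -0.11 in EDL, beside -0.02 and 0.00 over all identifiers. Standard errors were larger for the members, with a median of 0.46 in each muscle against 0.31 in SOL and 0.27 in EDL. The rule favours identifiers with a wide spread, and the identifiers tested include many below the members' PRE level. Nothing is therefore read from the members' smaller shares of calls and of small p.

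The member called between HIB and SA was identifier 110598575, at place 51. Its EDL levels were 58.1, 67.7 and 53.4 in HIB and 172, 227 and 119 in SA, and the groups did not overlap. It fell by 1.52 ± 0.36 on the log2 scale (SE, edgeR adjusted p = 0.0325). The call was lost without any single one of the 6 libraries, with adjusted p from 0.0554 to 0.0993, while the difference stayed between -1.73 and -1.30. The number of all identifiers called fell in those fits too, from 780 to between 89 and 416. In SOL the levels of this member were 17.9, 63.4 and 47.4 in HIB and 92.9, 190 and 64.1 in SA. The difference of -1.44 ± 0.69 did not pass (edgeR adjusted p = 0.221). Its other EDL levels were 201, 294 and 396 in PRE, 230 in IBA replicate 1 and 189 in both other IBA libraries, and 192, 464 and 210 in POST. In SOL they were 88.8, 301 and 319 in PRE, 173, 124 and 196 in IBA and 186, 545 and 74.4 in POST. HIB was thus the lowest state in both muscles, and POST replicate 2 exceeded all PRE libraries in both.

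After hibernation, 1 member in each muscle was called against summer. In SOL the member at place 14 was lower in POST, where 0.87% of identifiers were called, 0.401% higher and 0.468% lower. It stood at 1202, 1040 and 710 in POST and at 5905, 3302 and 3177 in SA, without overlap, and fell by 2.09 ± 0.39 on the log2 scale (SE, edgeR adjusted p = 0.0403). Without POST SOL replicate 1 the difference was -2.23 and the call was lost (edgeR adjusted p = 0.0874). The calls without each other library of the 2 groups were lost too, except without POST replicate 3, and the adjusted p ran from 0.0224 to 0.118. All identifiers called numbered 143 with every library, 2 to 19 without an SA library and 10 without POST replicate 1. They numbered 179 without POST replicate 2 and 2137 without POST replicate 3. In EDL this member stood at 488, 146 and 105 in POST and 943, 477 and 203 in SA, and these overlapped.

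The member called in EDL was at place 32, and it was higher in POST, where 8.65% of identifiers were called, 4.25% higher and 4.41% lower. Its levels were low: 52.4, 65.3 and 110 in POST and 9.95, 7.09 and 10.3 in SA. It rose by 3.03 ± 0.73 on the log2 scale (SE, edgeR adjusted p = 0.0244). The call was lost without any of the SA libraries or without POST replicate 3, with adjusted p from 0.0549 to 0.0864. In those fits 239 to 1423 of all identifiers were called, against 1410 with every library. In SOL this member stood at 39.03, 20.4 and 46.5 in POST and at 7.43, 5.90 and 29.9 in SA. PRE replicate 2 of this member was its lowest PRE library in both muscles, at 5.69 in SOL and 15.8 in EDL, while the other PRE libraries lay between 102 and 197. Over all members the median POST minus SA difference was -0.01 in SOL and 0.10 in EDL. An unadjusted p under 0.05 was reached by 4 members (7.69%) in each muscle, against 22.3% and 26.4% of all identifiers. As for HIB against SA, nothing is read from these smaller shares. DESeq2 called 1 member in SOL and 2 in EDL, where it called 8.76% and 14.8% of all. Fitted differences exceeded 2-fold in 8 members (15.4%) in each muscle, against 14.8% of all identifiers in SOL and 13.0% in EDL.

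For arousal between torpor bouts against hibernation, edgeR called no member and hardly any identifier, so its count says little about the members. Between IBA and HIB, edgeR called 0 members in SOL and 0 in EDL, where 0% and 0.0307% of identifiers were called, the latter 0.0184% higher and 0.0123% lower in IBA. DESeq2 called 0 and 1, where it called 0.249% and 0.822% of all. At an unadjusted p under 0.05 there were 6 members (11.5%) in SOL and 7 (13.5%) in EDL, against 6.63% and 10.5% of all identifiers. The median difference was -0.21 in SOL, where 19 of 52 members had a higher fitted level in IBA, and 0.00 in EDL, where 25 did. Medians over all identifiers were 0.01 and 0.00. Fitted differences exceeded 2-fold in 8 members (15.4%) in SOL and 7 (13.5%) in EDL, against 6.81% and 6.40% of all identifiers. The members' standard errors were larger here too, with medians of 0.47 and 0.46 against 0.31 and 0.27, and their part in this was not tested.

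Of the other states, POST was most often nearest to PRE in EDL, which describes medians that the rule used. POST had the highest median of the other 4 states for 25 of 52 members (48.1%) in EDL, beside 32.5% of all identifiers with that PRE level, and the lowest for 5 (9.62%), beside 26.9%. In SOL the highest of the other states was POST for 17 members (32.7%, beside 29.3% of all), HIB for 16 (30.8%, beside 24.9%), SA for 13 (25.0%, beside 28.7%) and IBA for 6 (11.5%, beside 17.1%). Nothing is read from these differences to the background. The nearest state was the same in both muscles for 22 members.

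Many members had unequal levels in the muscles, although the PRE median of each was its highest in both. The rule compared no muscle with the other, so this was tested in 1 fit of all 30 libraries and 16946 identifiers. That fit leaves out the pairing of same-numbered libraries and treats the muscles as independent samples. In PRE, 10 of 52 members differed between SOL and EDL, 5 higher in each, where 3.88% of all identifiers were called, 2.01% with SOL above EDL and 1.87% with EDL above SOL. With same-numbered libraries paired, 18 members were called, among them all 10, and the share of all identifiers rose as well, to 9.94%. Over the mean of the other 4 states 22 members were called, 9 with SOL above EDL and 13 with EDL above SOL, where 24.2% of identifiers were called, 11.6% with SOL above EDL and 12.6% with EDL above SOL. With the pairing these were 31 members, among them all 22, and 35.8% of all identifiers. All 10 members called in PRE were among these 22, with the same sign. They make up 45.5% of the 22. Of the 658 identifiers called in PRE, 98.5% were called in the other states, and they were 15.8% of those called there. The identifiers tested include many below the members' PRE level, and no background matched for level was tested here. Nothing is therefore read from the members' larger shares of calls, or from 45.5% beside 15.8%.

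The widest muscle difference in PRE towards SOL was that of the member at place 8. It stood at 4155, 1170 and 2732 in PRE SOL and at 264, 98.5 and 405 in PRE EDL, a log2 difference of 3.40 ± 0.83 (SE, edgeR adjusted p = 0.0164). That call was lost without PRE SOL replicate 1, PRE EDL replicate 1 or PRE EDL replicate 2. In those fits 429 to 440 of all identifiers were called, against 658 with every library. Over all alternatives the difference of this member lay between 2.95 and 3.90 and the adjusted p between 0.00053 and 0.105. Replicate 2 was lowest in both muscles. In the other states the difference was 4.49 ± 0.45 (edgeR adjusted p = 3.89e-08). The widest towards EDL was that of the member at place 36, with 457, 545 and 81.2 in PRE SOL and 4645, 5049 and 2133 in PRE EDL. Its log2 difference was -3.44 ± 0.60 (edgeR adjusted p = 0.000866), and -3.22 ± 0.30 in the other states (edgeR adjusted p = 1.19e-08). For both, no PRE SOL library overlapped a PRE EDL library. The member at place 12, described above, differed by 2.67 ± 0.45 in PRE (edgeR adjusted p = 0.000622).

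**Figure D5:**
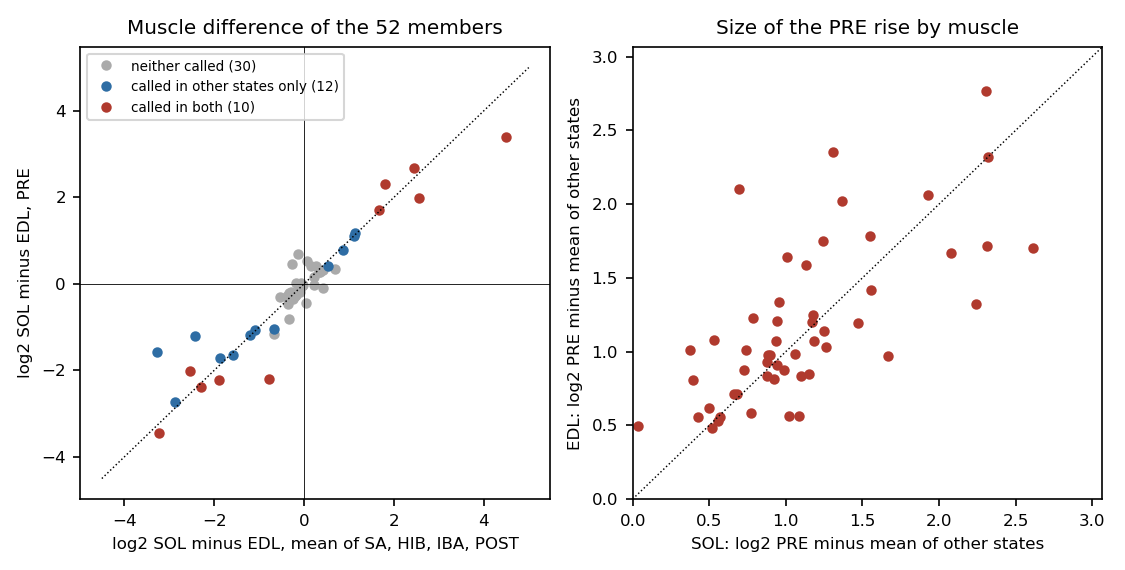
Left, log2 SOL minus EDL of the 52 members in PRE against the mean of the other 4 states, coloured by edgeR calls at an adjusted p of 0.05, with a dotted line of equality. Right, the PRE rise (mean log2 level in PRE minus the mean of the other states) in SOL against EDL. In the left panel 9 of the 10 members called in PRE lie at least 1.67 from 0 on both axes, and the member at place 42 lies at -0.78 in the other states.

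The median PRE rise over the list was close in the muscles, which is a description since the rule asked for a rise in each. The rise, PRE minus the mean of the other 4 states on the log2 scale, had a median of 0.999 over members in SOL and 1.02 in EDL. The range was 0.04 to 2.62 in SOL, and 0.48 to 2.77 in EDL. Testing the rise in SOL against that in EDL called 0 members and 0% of all identifiers in edgeR, and DESeq2 called 0 members and 0.0059% of all. The rule used the rises compared, so nothing is read from this count. The fitted differences ran from -1.41 to 1.68, with a median standard error of 0.54. One member, at place 42, had an unadjusted p under 0.05, where 1.09% of all identifiers did. It stood at 452, 432 and 362 in PRE SOL and at 1377, 1845 and 2534 in PRE EDL. Its difference was -1.41 ± 0.42, a larger rise in EDL, and did not pass (edgeR adjusted p = 0.999986).

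PRE libraries were left out to see how far membership depends on them. With 2 libraries left the median is their mean. A member with 1 low PRE library, such as that at place 1, can then still be kept. Being kept therefore does not show that all 3 PRE libraries were high. When the PRE libraries of one number were left out in both muscles, a choice made after seeing the data, 35 of the 52 members still met the rule without replicate 1, 34 without replicate 2 and 30 without replicate 3. The rule then kept 79, 72 and 57 identifiers in all. The same 13 members were kept in all 3 cases, and 11 of these were among the first 15 places, which are ordered by the smallest ratio. The others were at places 23 and 24. With any one of the 30 libraries left out, 36 to 52 of the members were kept, and 8 were kept in every case.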

How the data were processed

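RNA of 30 muscle libraries was sequenced. The authors deposited 1 table of unnormalised whole-number counts. HTSeq 0.9.1 and HISAT2 2.0.4 are named in the submitters' processing notes, and libraries were made with a NEBNext Ultra RNA kit per the labels' protocols. The sources used here name no genome build, annotation or strand setting, so counts of overlapping, antisense or near-identical genes are uncertain. Of 27394 identifiers, 26378 are numbers and 1016 have a text prefix. No reference table was used here, so gene and marker lists drawn up by symbol were not run.

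Size factors were medians of ratios over 14678 numeric identifiers without zeros. Tests used edgeR 4.0.16 in R 4.3.3 with filterByExpr (minimum count 10), TMM, the quasi-likelihood test and Benjamini-Hochberg adjustment over all identifiers, at 0.05. State comparisons used the 15 libraries of a muscle, and muscle comparisons all 30. The standard error is the log2 difference divided by the square root of F. Heat map and deviations used log2(normalised count + 1). The test was tried on simulated data. DESeq2 1.42.0 and the other alternatives are described with their effect.

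SOL and EDL libraries of one state and number deviated together over all identifiers (r above 0.1 in 15 of 15 pairs, median 0.44), which is read from the data, and numbers did not pair states (median -0.01). No columns were identical. The module and its rule were chosen with earlier results of these data known. Given by number are the 2 members with the largest smallest ratio and the 2 others with the lowest mean HIB minus SA difference. All others are given by place, and those singled out beyond the rule were chosen after their values were seen.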

Additional observations from a re-analysis of the deposited data

Results flagged for a closer look

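Identifiers with a text prefix were outside the rule, and 6 of them met it otherwise, with a PRE median at least 1.4 times that of each other state, SA included, in both muscles. For 5 of the 6 the smallest ratio lay between 1.58 and 2.14. The sixth had counts in only 8 of 30 libraries, 320 to 1078 counts each, and 0 counts in the other 22. The same 4 combinations of state and number had counts in SOL and in EDL. They were SA replicate 2, PRE replicates 2 and 3 and POST replicate 3. Its normalised counts there were 909, 558, 584 and 357 in SOL and 480, 452, 393 and 247 in EDL. Its PRE peak rests on 2 of 3 library numbers in each muscle, and SA replicate 2 was above both in each. A count of 0 allows up to 3 counts in a library, for counting error only.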

How the results depend on the processing

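The count of 52 members was 170 at a fold of 1.2, 20 at 1.6, 11 at 1.8 and 7 at 2, 29 with a PRE median of at least 500, and 27 with counts scaled to the library total. Without single libraries it ran from 38 to 58. With group means it was 38, of which 25 were among the 52, and with size factors from all identifiers, added after seeing the data, 53. In muscle comparisons the replicate block paired SOL and EDL libraries of one state and number. In state comparisons within a muscle it was an effect of library number across the states. Members called between SOL and EDL in PRE numbered 18 with the replicate block and 7 to 10 without single libraries (429 to 757 identifiers in all). In the other states they numbered 20 to 22 without single libraries (3680 to 4802 identifiers in all). For HIB against SA in EDL, 2 were called with no filter (2.95% of all identifiers) and with the replicate block (3.36%), and 3 by DESeq2 (10.6%). The count was 0 with all 30 libraries in 1 fit (4.76%) and with only the 6 libraries compared (1.71%). Without any single library it was 0 as well, where 89 to 416 identifiers were called in all. For POST against SA in SOL, 0 were called with the replicate block (0.195% of all) and with only the 6 libraries compared (0%). Without single libraries 0 to 2 were called (2 to 2137 identifiers in all). Without POST SOL replicate 1 that count was 0 (10 identifiers in all). The member count was then 53 and the SOL against EDL count in other states 21 (4802 identifiers in all). For POST against SA in EDL, DESeq2 called 2, and single libraries left out gave 0 to 2 (239 to 1423 identifiers in all). For IBA against HIB in EDL, DESeq2 called 1. HIB against SA in SOL, IBA against HIB in both muscles and the difference in PRE rise kept 0 members without any single library. In these fits 6 to 1616 identifiers were called for HIB against SA in SOL and 1 to 6 for IBA against HIB in EDL. The other comparisons called 0. By these data the numbers pair SOL with EDL and do not pair states, and the replicate block moved no other count by over 1.5 times. The 42 results of single members kept their direction in 860 alternative fits, and 60 of these lost a call. The causes were not tested. How much of the error comes from depth was not tested.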
